A study of Homo sapiens with 6 samples.

Results

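Open chromatin of 2 leukaemia cell lines, DND-41 and KOPT-K1, was compared with that of 4 others at the regions where the 2 sets of lines had opposite peak calls. Peak intervals of all 6 lines on chromosomes 1 to 22 and X were merged wherever they overlapped, which gave 40110 regions. Of these, 406 regions (1.01%) held a peak in both DND-41 and KOPT-K1 and in none of the other 4 lines; they are called pair-only regions here. Another 99 regions (0.247%) held a peak in each of CCRF-CEM, HBP-ALL, MOLT-4 and TALL-1 and none in DND-41 or KOPT-K1; they are called pair-missed regions. Together the 505 regions were chosen by the calls themselves, so that their presence in some lines and absence in others is a description and was not tested.

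The study mapped accessible DNA by ATAC-seq in 6 established human T-ALL lines (T-cell acute lymphoblastic leukaemia), with 1 library per line. The cells were grown in RPMI-1640 medium with serum and antibiotics, and the labels name no treatment, no control sample and no genetic change made by the study in any line. Each line is 1 culture of 1 patient's leukaemia, so a difference between lines cannot be told apart from a difference between cultures or library preparations. No replicate error exists for any value below, and the exact binomial intervals given cover counting error only.

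T-ALL is a cancer of immature T cells, and its lines differ in the transcription factors that their chromosome rearrangements switch on. DND-41 is known for a rearrangement that activates TLX3, a homeobox factor, and KOPT-K1 for a translocation that activates LMO2, a bridging protein of transcription factor complexes. Whether any of the other 4 lines carries a similar rearrangement was not examined here. In ATAC-seq the Tn5 transposase cuts accessible DNA and leaves sequencing adapters there. A peak is a stretch with more such tags than its surroundings, and its summit is the position where the tags stack highest. Peaks away from gene starts often lie in enhancers, which are on average more specific to a cell type than promoters are.

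Each deposited peak carries the −log10 of a p-value against the local background, which serves here as its strength. Because it grows with the number of tags in a library, strengths were also given as a percentile among all intervals of the same line, with 100 for the strongest. The pileup is the count of tags over the summit, recovered from the deposited values. The deposited lists held 17898 intervals for DND-41 and 18114 for KOPT-K1, against 22367 for CCRF-CEM, 22055 for HBP-ALL, 19114 for MOLT-4 and 16507 for TALL-1. The lowest −log10 p in every list lay just above 5, and the number of reads behind the lists is not known here. No gene annotation of the files' genome build, hg19, was used here, so regions are named by their 1-based hg19 positions, and neither the nearby genes nor the T-cell marker genes of the lines were examined.

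The 406 pair-only regions were 1.01% of all merged regions (exact binomial 95% interval 0.917% to 1.12%). They were 7.47% of the 5436 regions with peaks in exactly 2 lines. DND-41 and KOPT-K1 shared a peak at 13412 regions, and at 3.03% of these no other line had one. Among the 15 possible pairs of lines, 4 had more regions of their own. CCRF-CEM with HBP-ALL had 679, HBP-ALL with MOLT-4 had 658, CCRF-CEM with MOLT-4 had 485 and CCRF-CEM with DND-41 had 467. KOPT-K1 with TALL-1 had the fewest, 178. Each of these 4 pairs included CCRF-CEM or HBP-ALL, the lines with the longest lists. With the 16507 strongest intervals taken from every line, DND-41 and KOPT-K1 came first. They then had 455 regions of their own, followed by 402 for HBP-ALL with MOLT-4. The pair was singled out for its similar lists, so this rank is not independent of that choice.

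In the full lists, CCRF-CEM, which has the longest, was a more frequent partner of DND-41 than KOPT-K1 was. DND-41 had 1593 regions with exactly 1 partner line, which was KOPT-K1 at 25.5% of them and CCRF-CEM at 29.3%. With equal numbers of intervals the order turned, with 455 regions shared with KOPT-K1 alone, 383 with TALL-1 and 377 with CCRF-CEM. KOPT-K1 had 1624 such regions, with DND-41 as the partner at 25% and MOLT-4 at 24.1%.

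The 99 pair-missed regions were 0.247% of all merged regions (0.201% to 0.3004%) and 4.01% of the 2468 regions with peaks in exactly 4 lines. Of the 15 ways to leave out 2 lines, this one ranked 13th, between 104 regions without HBP-ALL and KOPT-K1 and 86 without DND-41 and HBP-ALL. The highest count was 271, for regions without CCRF-CEM and TALL-1. This order changed with equal numbers of intervals. That count was then 182, and the highest was 377, for regions without CCRF-CEM and HBP-ALL. DND-41 and KOPT-K1 then ranked 14th, with 58. In the full lists DND-41 was without a peak at 722 regions that lacked 1 further line. That line was KOPT-K1 at 13.7% of them, CCRF-CEM at 29.1% and TALL-1 at 35.5%. With equal numbers of intervals DND-41 had 211 regions missed with CCRF-CEM alone, 158 with TALL-1 and 58 with KOPT-K1. Which line came first thus depended on list length. DND-41 and KOPT-K1 thus had 1 of the smaller counts of jointly missed regions, while 60.1% of the regions with a peak in either line had one in both, the highest share of the 15 pairs. The pair had been singled out for its similar lists, so this rank restates that choice.

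**Figure D1:**
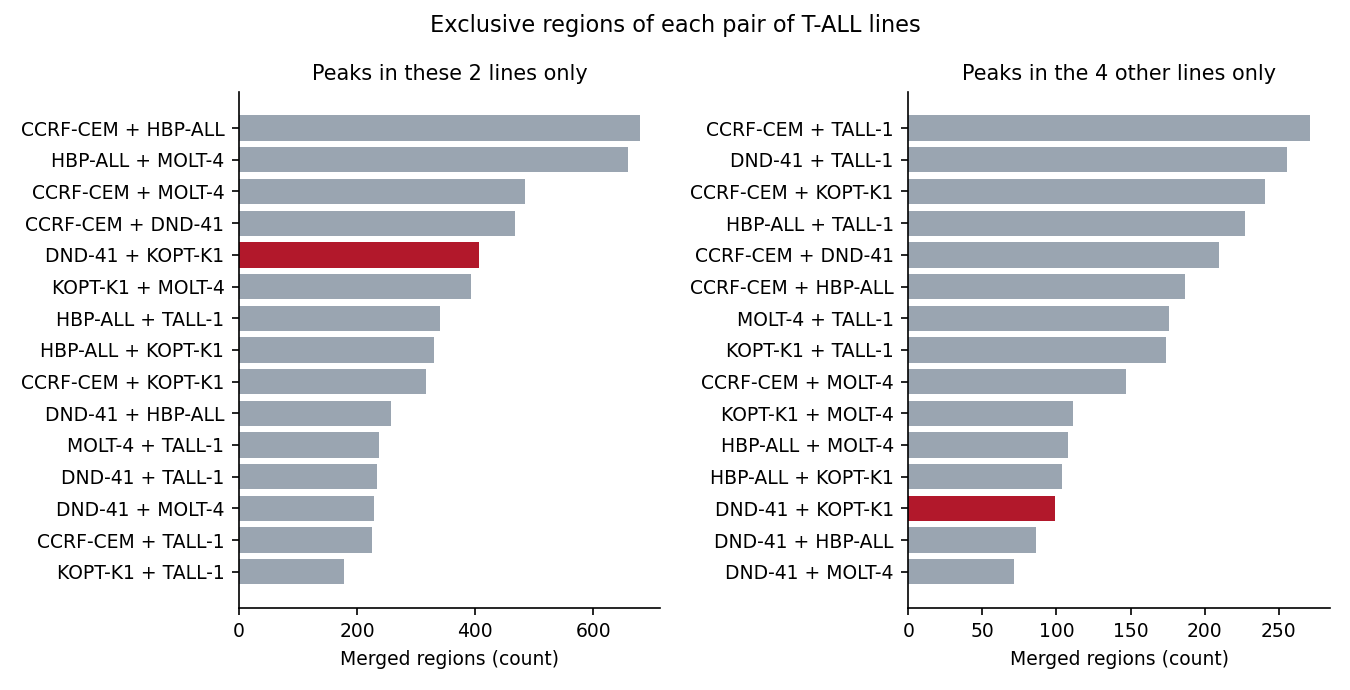
Bars give the number of merged regions with peaks in exactly the 2 named lines (left) or in exactly the 4 lines not named (right), for all 15 pairs, with DND-41 and KOPT-K1 in red. The pair has 406 regions of its own, with 4 pairs above it, and 99 regions called only in the 4 others, with 12 above it.

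The strongest pair-only region, ordered by the weaker of its 2 percentiles, was chr9:21974624-21975643, 1020 bp wide. Its −log10 p was 49.7 in DND-41 and 54.6 in KOPT-K1, with pileups of 79 and 83 tags. It stood at percentile 91.7 of the DND-41 list and 94.8 of the KOPT-K1 list, so both lines ranked it among their strong peaks. The 2 summits were 41 bp apart.

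The other lines did have peaks in the surroundings of this region, at different distances. HBP-ALL, MOLT-4 and TALL-1 had their nearest interval 18319, 18525 and 18592 bp away, all on the higher-coordinate side, and CCRF-CEM had none within 75188 bp. The stretch without a CCRF-CEM peak measured 247.3 kb and held 10 merged regions, of which DND-41 and KOPT-K1 had a peak in 6 each, HBP-ALL in 4, TALL-1 in 2 and MOLT-4 in 1. For MOLT-4 the stretch without a peak measured 190.8 kb with 7 merged regions. In HBP-ALL and TALL-1 it was shorter, 73.9 kb and 74.0 kb, with 2 merged regions each, both with a KOPT-K1 peak. DNA copy number was not measured, so in any such stretch lost DNA and closed chromatin cannot be told apart.

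The next strongest pair-only regions, on chromosomes 1 and 6, lay where shared peaks were sparse. At chr1:237899727-237900439 the −log10 p was 37.4 in DND-41 and 47.7 in KOPT-K1, with pileups of 49 and 66 and summits 17 bp apart. HBP-ALL had an interval 10320 bp away, whereas the nearest of MOLT-4 was 515127 bp away. At chr6:82036940-82037466 the values were 34.1 and 35.7, with pileups of 38 and 44. No region with a peak in all 6 lines lay within 500 kb of either. Around the chromosome 6 region, TALL-1 had no peak over 2140 kb that held 22 merged regions, 19 of them with a peak in CCRF-CEM and 4 in DND-41.

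In the following regions, on chromosomes 3 and 7, DND-41 was the stronger line. At chr3:17192947-17193792 its −log10 p was 54.6, the highest of the pair-only regions in that line, against 26.9 in KOPT-K1, and its pileup was 77 against 41. At chr7:114648588-114649898 the values were 48.2 and 26.4, with pileups of 78 and 54. This was also the widest pair-only region, at 1311 bp, because the DND-41 interval alone had that width while the KOPT-K1 interval covered 918 bp. TALL-1 had no peak over 3440 kb around it, a stretch with 43 merged regions, 18 of them with a CCRF-CEM peak, 16 with DND-41, 11 with HBP-ALL, 19 with KOPT-K1 and 11 with MOLT-4.

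The next 5 were chr3:162436368-162437135, chr13:77554155-77554489, chr2:211384326-211384710, chr4:178147471-178148571 and chr11:47972022-47972437. Their −log10 p ranged from 27.4 to 29.8 in DND-41 and from 24.8 to 32.7 in KOPT-K1. The summits of the 2 lines were 1 bp apart in the first of these, 4 bp in the second, and 25 to 39 bp in the other 3. The regions on chromosomes 13 and 11 were narrow and closely shared, with 92.8% and 95.9% of their span covered by both lines. At the chromosome 4 region MOLT-4 had an interval only 1406 bp away, so the lack of a MOLT-4 call there concerns the region itself and not the wider locus.

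The pair-missed regions were led by chr8:75896369-75897492, 1124 bp wide. Its −log10 p was 99.8 in CCRF-CEM, 54.1 in HBP-ALL, 20.1 in MOLT-4 and 34.4 in TALL-1, and its pileups were 122, 75, 26 and 57 tags. CCRF-CEM and HBP-ALL ranked it at percentiles 98.5 and 97.5 of their lists. DND-41 had no interval within 633413 bp and KOPT-K1 none within 479910 bp. Their stretches without a peak, 2104 kb and 1864 kb, held 9 and 7 merged regions.

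MOLT-4 had the lowest value in the next regions on chromosomes 14 and 5. At chr14:91294325-91294886 the −log10 p was 47.3 in CCRF-CEM, 25.2 in HBP-ALL, 19.7 in MOLT-4 and 36.3 in TALL-1, and the strongest summits of the 4 lines fell within 14 bp, the smallest spread of the 99 regions. At chr5:33641987-33642710 the values were 38.8, 49.5, 18.9 and 37.9. At chr7:107844064-107844537 they were 19.7, 22.4, 22.7 and 26.8, the most even of the leading regions, with pileups of 23, 28, 29 and 36. In these regions DND-41 and KOPT-K1 ended and resumed their peaks at nearly the same positions, with nearest intervals 69118 and 69145 bp, 200393 and 200184 bp, and 312017 and 312027 bp away.

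The order of the lines differed at other leading regions. At chr11:35684002-35684675 CCRF-CEM had 41.6 and HBP-ALL 30.4, against 15.6 in MOLT-4 and 16.96 in TALL-1. At chr20:55965810-55966904 the order was the other way, with 16.8 and 13.4 against 29.1 and 29.8, and a DND-41 interval lay 1054 bp away. At chr1:164629431-164630105 TALL-1 was lowest, with 14.7 against 29.9, 35.4 and 21.5 in CCRF-CEM, HBP-ALL and MOLT-4. The 10 leading regions also included chr11:4208295-4209165, chr18:72040691-72041102 and chr15:61136717-61137113.

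Some of the pair-only regions lay in clusters along the chromosomes, and the share with a close neighbour was the highest of the 15 pairs. Another pair-only region lay within 100 kb of 62 of the 406 (15.3%, exact binomial 95% interval 11.9% to 19.1%). The other 14 pairs ranged from 3.06% for DND-41 with MOLT-4 to 13.7% for CCRF-CEM with DND-41, where it was 64 of 467. The interval of the pair-only share includes that highest value of the other pairs. The 15 sets ran from 178 to 679 regions, and a smaller set has fewer possible neighbours, so the rank does not allow for set size. Within 20 kb the count was 20 and within 500 kb it was 108. The median distance from a pair-only region to the nearest other one was 1456471 bp.

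Regions were joined into chains where neighbours lay within 500 kb. Of the pair-only regions 298 stood alone, 33 chains had 2 members, 11 had 3, and there was 1 chain each of 4 and 5. By the number of chains with 3 or more members, 13, the pair had fewer than 3 of the other 14 pairs.

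The chain of 5 ran over 176.8 kb at chr3:172208086-172384919. Its members had a −log10 p of 7.43, 25.2, 10.5, 7.28 and 13.1 in DND-41 and of 5.72, 12.9, 11.1, 6.49 and 12.5 in KOPT-K1, in order of position. The second, chr3:172235716-172236101, was the strongest in both lines, with pileups of 44 and 27, and the members at 172208086 and 172333523 were near the threshold in KOPT-K1. The stretch held 13 merged regions. DND-41 had a peak in 12 of them and KOPT-K1 in 8, while CCRF-CEM had 5, MOLT-4 3, HBP-ALL 1 and TALL-1 0. By definition each of the 5 members adds a peak to DND-41 and to KOPT-K1 and none to the other lines. The totals of the stretch thus partly restate the rule. The missing calls of TALL-1 extended over all 13 merged regions.

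The chain of 4, at chr1:172419193-172916468, was of another kind. It spread 4 members over 497.3 kb among 23 merged regions, 14 of them with a CCRF-CEM peak and 14 with a DND-41 peak. Of its members 3 were weak in both lines and 1, chr1:172449440-172449921, stood above the list median in DND-41, with −log10 p in order of position of 5.22, 18.6, 5.02 and 9.21 in DND-41 and of 7.33, 8.44, 5.72 and 6.96 in KOPT-K1.

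The 3 shortest chains of 3 were compact. At chr2:227466694-227474609 the 3 members lay within 7.92 kb with no other merged region between them. Their −log10 p was 9.93, 12.8 and 28.5 in DND-41 and 7.17, 11.1 and 18.4 in KOPT-K1, so both lines had the highest of the 3 peaks at the same end. The nearest interval of another line was one of CCRF-CEM, 40015 bp from the last member. At chr18:60867015-60884388 the 3 members lay within 17.4 kb, and the 2 further regions of this stretch held a peak in DND-41 alone. The values were 26.7, 19.04 and 16.9 in DND-41 and 23.02, 13.7 and 15.9 in KOPT-K1. At chr8:130558857-130604780 the chain covered 45.9 kb with no other region, with values of 7.52, 15.5 and 19.6 in DND-41 and 8.75, 16.8 and 11.5 in KOPT-K1.

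**Figure D2:**
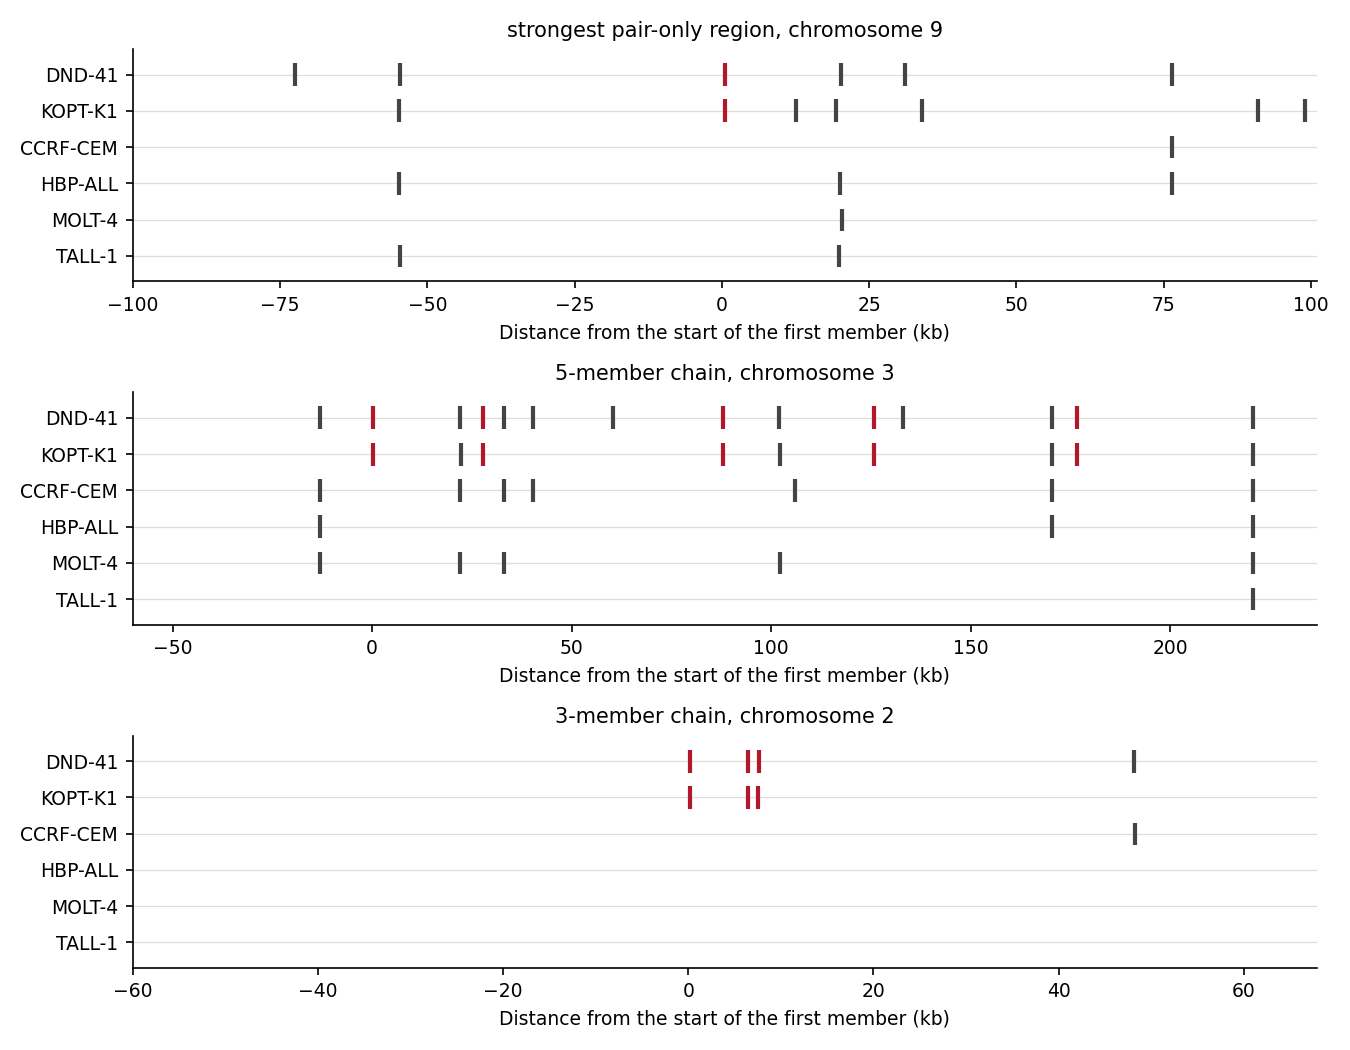
Each vertical mark is a peak interval of the line named at the left, plotted by its distance in kb from the start of the first member shown; red marks belong to pair-only regions. The strongest region (top) lies between peaks that HBP-ALL and TALL-1 have on both sides, with 1 further KOPT-K1 peak in that gap, the chain of 5 on chromosome 3 (middle) is interleaved with peaks of CCRF-CEM and MOLT-4, and the chain of 3 on chromosome 2 (bottom) has no peak of another line within 40015 bp.

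Of the pair-missed regions 4 of the 99 (4.04%, exact binomial 95% interval 1.11% to 10.0%) had another within 100 kb, and 8 had one within 500 kb. The other 14 sets of 4 lines ranged from 2.82% to 16.3% within 100 kb, and 9 of them were higher. The sets of 4 lines differed in size as well, from 71 to 271 regions. A set of 99 also has fewer possible neighbours than the 406 pair-only regions, so the shares of both kinds were not compared. The 8 regions with another within 500 kb formed 4 chains of 2. In the closest, at chr2:167658899-167660471, 333 bp separated the 2 members. The first of them had a −log10 p of 44.3 in CCRF-CEM, 52.3 in HBP-ALL, 33.7 in MOLT-4 and 11.7 in TALL-1, and the second had 21.5, 9.41, 5.25 and 17.7. TALL-1 thus had its higher peak in the second region and the other 3 lines in the first. DND-41 and KOPT-K1 had no interval within 620400 and 262703 bp of the first. The second chain, at chr14:91282410-91294886, joined the region on chromosome 14 given above to a weaker neighbour with values of 5.58, 12.1, 6.11 and 14.5. The other 2 chains, at chr22:24109887-24373303 and chr11:3829348-4209165, spanned 263.4 and 379.8 kb and held 4 and 3 regions with a peak in every line.

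The pair-only regions were unevenly spread over the chromosomes. Chromosome 6 held 39 (9.61%, 6.92% to 12.9%), the most, against 6.66% of all 2-line regions and 6.46% of all merged regions. Its share was higher than in 12 of the other 14 pairs. Chromosome 18 held 17 (4.19%, 2.46% to 6.62%) against 2.34% and 2.17%, and its share was higher than in 13 of the other 14 pairs. Chromosome 21 held 0 of 406, with an exact binomial upper bound of 0.904% (3 counts in place of 0 would be 0.739%), against 1.56% of the 2-line regions. The lowest share of chromosome 21 among the other pairs was 0.214%. These chromosomes were picked from all those compared and were not named in advance. The shares of the other pairs varied too, on chromosome 3 from 1.69% to 17.9%.

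Chromosomes 19, 20 and 22 held 2 pair-only regions each and chromosome 17 held 5. Together chromosomes 17, 19, 20, 21 and 22 contributed 11 pair-only regions (2.71%), against 9.84% of the 2-line regions and 11.1% of all merged regions. The shares of the full lists on these chromosomes were 13.4% in DND-41 and 12.4% in KOPT-K1, above the 9.15% of CCRF-CEM and below 13.6% in HBP-ALL, 15.3% in MOLT-4 and 16.95% in TALL-1. CCRF-CEM with DND-41 was the only pair with a lower share among its own regions, 0.428%, and the highest was 27.8%. These 5 chromosomes were put together after their shares had been seen.

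The pair-missed regions did not show this deficit. Of the 99, 18 (18.2%) lay on the same 5 chromosomes, against 14.2% of the 4-line regions, and 4 of the other 14 sets of 4 lines had a higher share. Chromosome 15 held 8 (8.08%, 3.55% to 15.3%) against 2.84% of the 4-line regions, and chromosome 22 held 5 (5.05%, 1.66% to 11.4%) against 1.70%, which its interval includes. Other sets of 4 lines reached 9.86% on chromosome 15 and 7.47% on chromosome 22. Both chromosomes were picked from all those compared and were not named in advance. The 5 on chromosome 22 ran from position 20861621 to 44851887 and were of low height, with −log10 p from 5.14 to 18.4 over the 4 lines. With so few regions per chromosome the counting intervals are wide, as the plot of shares by chromosome shows.

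**Figure D3:**
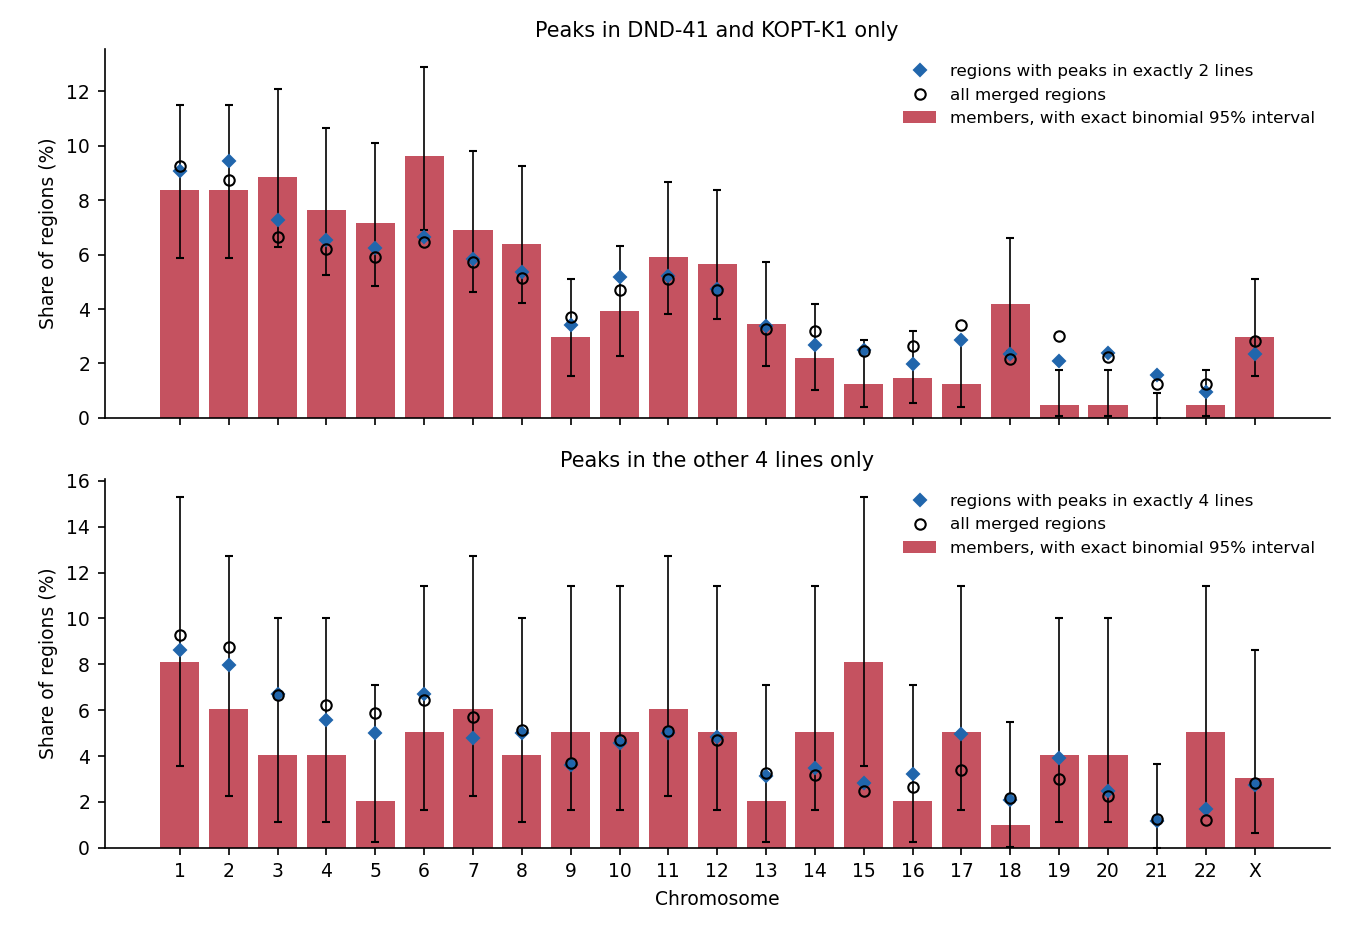
Bars give the percent of the 406 pair-only regions (top) and the 99 pair-missed regions (bottom) on each chromosome, with exact binomial 95% intervals for counting error; diamonds give the same for all regions with peaks in exactly 2 or exactly 4 lines, and circles for all merged regions. Pair-only regions are fewer on chromosomes 17 and 19 to 22 than the diamonds, with 0 on chromosome 21, and more on chromosomes 6 and 18.

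The members were narrow. The merged width of the pair-only regions had a median of 458 bp (quartiles 359 and 574, range 212 to 1311 bp), against 441 bp for all 2-line regions and 880 bp for regions with a peak in every line. Because merging intervals of more lines widens a region, the widths of single intervals were also compared. At pair-only regions the DND-41 intervals had a median of 359 bp and the KOPT-K1 intervals of 347.5 bp. At the other 2-line regions of each line the medians were 305 and 319 bp, and at the 6-line regions 704 and 669 bp. The intervals that DND-41 and KOPT-K1 shared with each other alone were thus wider than those each shared with 1 of the other lines, and narrower than their common peaks.

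The pair-missed regions had a median merged width of 569 bp (280 to 1351 bp), against 589 bp for all 4-line regions. The median interval was 350 bp in CCRF-CEM, 367 bp in HBP-ALL, 391 bp in MOLT-4 and 333 bp in TALL-1. At the other 4-line regions of the same lines it was 408, 434, 396 and 373 bp, so each line had a lower median at the pair-missed regions, by the least in MOLT-4. The binomial 95% intervals of the medians overlapped in MOLT-4 and TALL-1 and were apart in CCRF-CEM and HBP-ALL. The widest pair-missed region, chr12:107713857-107715207 with 1351 bp, owed its width to summits that lay up to 804 bp apart. Its pileups were 26, 16, 21 and 21 in CCRF-CEM, HBP-ALL, MOLT-4 and TALL-1.

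Peaks of these regions were mostly simple. Several summits within 1 interval were listed at 34 pair-only regions in DND-41 (8.37%) and at 21 in KOPT-K1 (5.17%), against 18.2% and 15.0% of all intervals in the 2 lists. At 405 of the 406 regions each line had a single interval. The strongest summit lay near the middle of the interval, at a median of 48.3% of its length in DND-41 and 46.6% in KOPT-K1.

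The strongest summits of DND-41 and KOPT-K1 lay a median of 48.5 bp apart at the pair-only regions (quartiles 22 and 106 bp). They were within 10 bp at 55 regions, within 50 bp at 207 (51.0%), within 100 bp at 299 (73.6%) and within 250 bp at 393 (96.8%). The same 2 lines had a median distance of 38 bp at the 6-line regions. At the exclusive regions of the other pairs the medians ranged from 45 to 76 bp, and the pair stood second from the smallest. The binomial 95% interval of its median, 42 to 56 bp, includes the smallest. The part of the region covered by both intervals had a median of 66.0% (62.25% to 68.5%), the highest of the 15 pairs, whose lowest was 61.3%. CCRF-CEM with KOPT-K1 had nearly the same, 65.7%. These ranks belong to a pair singled out for its similar lists. The largest distance was 462 bp, at chr11:91523882-91524591, where the pileup was 10 in DND-41 and 22 in KOPT-K1.

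**Figure D4:**
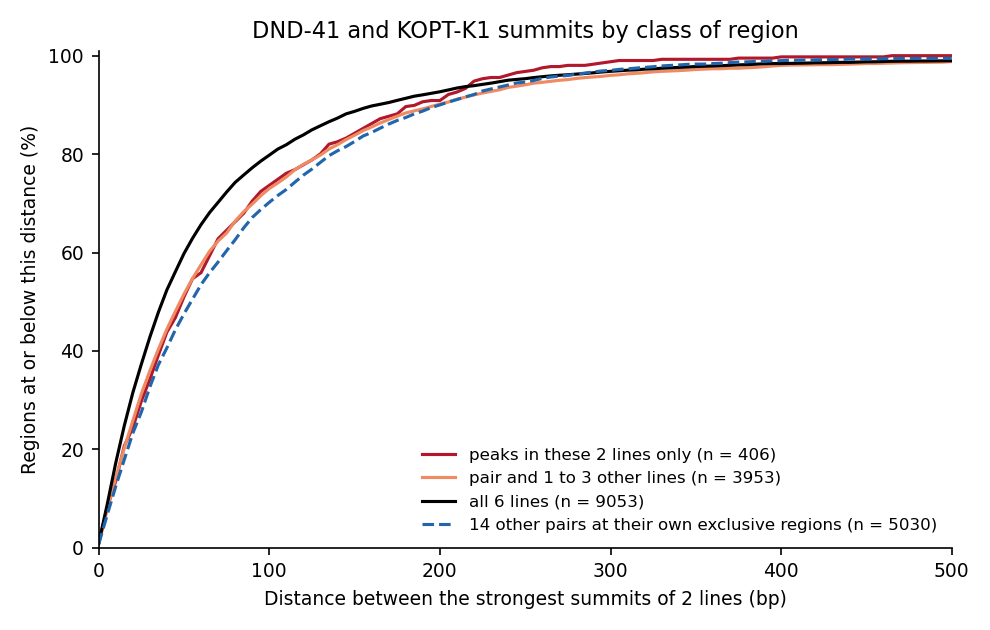
Curves give the percent of regions whose strongest summits in 2 lines lie at or below the distance on the horizontal axis (bp). The curve of pair-only regions (red) reaches 51.0% at 50 bp and 73.6% at 100 bp, close to the regions where 1 to 3 other lines also had a peak (orange), and at both distances below the 6-line regions (black) and above the exclusive regions of the other 14 pairs (blue, dashed).

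At pair-missed regions 4 summits can spread more than 2, and the distance between the outermost was a median of 140 bp (14 to 804 bp). The same 4 lines had a median of 94 bp at the 6-line regions. Among the 15 sets of 4 lines only 1 had a larger median spread at its own regions. All 4 summits fell within 100 bp at 34 of the 99 regions and within 250 bp at 77. A median of 35.5% of the region was covered by all 4 intervals, against 60.8% at the 6-line regions.

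Most pair-only peaks were of low to moderate strength in both lines. The median percentile was 24.96 in the DND-41 list and 24.6 in the KOPT-K1 list. At the other 2-line regions of these lines it was 20.3 and 24.4, at their line-only regions 15.3 and 15.5, and at the 6-line regions 70.9 in both. The median −log10 p was 10.3 in DND-41 and 9.77 in KOPT-K1, and the median pileup was 16 tags in each, with ranges of 8 to 79 and 8 to 83. The fold over background that the authors list had medians of 5.61 and 5.39.

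Few members were strong in both lines. In DND-41 77 of the 406 (18.97%) stood above the median of the list, in KOPT-K1 55 (13.5%), and in both 28 (6.90%). At 139 regions the weaker peak was under the 10th percentile of its list. The percentile of the weaker peak had a median of 15.96, which ranked 7th of the 15 pairs at their own regions. The medians ran from 11.1 for DND-41 with MOLT-4 to 20.2 for KOPT-K1 with MOLT-4, so low strength was not particular to this pair. Across the 406 regions the percentiles of the 2 lines had a Spearman rho of 0.37, against 0.77 across the 9053 regions of all lines. These points share their 2 libraries, and the threshold bounds both axes from below.

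The median strength at pair-missed regions was lower than at other regions of 4 lines in each line, but beyond counting error only in CCRF-CEM. The median percentile was 33.6 in CCRF-CEM, 38.1 in HBP-ALL, 31.6 in MOLT-4 and 26.9 in TALL-1, against 47.7, 39.7, 33.9 and 31.0 at the other 4-line regions, so the gap was widest in CCRF-CEM. The binomial intervals of these medians overlapped in HBP-ALL, MOLT-4 and TALL-1. They were apart in CCRF-CEM, at 24.7 to 42.9 for pair-missed regions against 46.0 to 50.4. Median pileups at pair-missed regions were 15, 19, 16 and 17 tags in CCRF-CEM, HBP-ALL, MOLT-4 and TALL-1. The weakest of the 4 peaks of a region had a median percentile of 10.1, the lowest of the 15 sets, and was under the 10th percentile at 48 of the 99. All 4 peaks stood above their list's median at 5 regions. Between pairs of the 4 lines the Spearman rho over the 99 regions ran from −0.06 for CCRF-CEM with TALL-1 to 0.40 for HBP-ALL with MOLT-4, with the same limits as above.

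**Figure D5:**
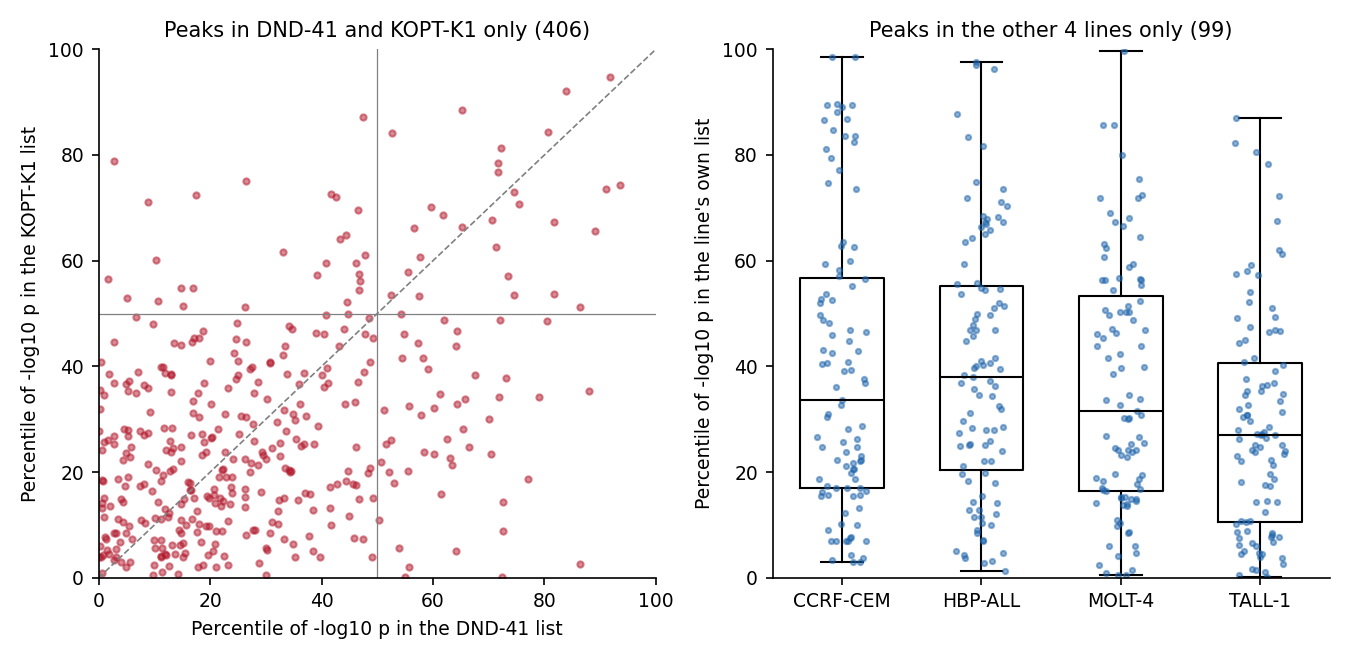
Left, each point is a pair-only region, placed by the percentile of its −log10 p in the DND-41 list (horizontal) and in the KOPT-K1 list (vertical); solid lines mark the list medians and the dashed line equal percentiles, and 28 points lie at or above both medians. Right, points are the 99 pair-missed regions in each of the 4 lines, with boxes for the quartiles and median (33.6, 38.1, 31.6 and 26.9) and whiskers for the full range.

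The distance from members to the peaks of lines without a call was measured without a matching value for other regions, so it has no background here. The nearest interval of any line without a call lay a median of 17801 bp from a pair-only region, and within 1 kb at 22 of them (5.42%). At 38 (9.36%) no line without a call had an interval within 100 kb. By line, no interval lay within 100 kb at 81 regions for CCRF-CEM, 91 for HBP-ALL, 109 for MOLT-4 and 138 (34.0%) for TALL-1, which is the line with the fewest intervals. For pair-missed regions the median distance to the nearest interval of DND-41 or KOPT-K1 was 34175 bp, 5 (5.05%) had one within 1 kb and 26 (26.3%) had none within 100 kb. The nearest interval was sought among 4 lines for pair-only regions and among 2 for pair-missed regions, so the 2 kinds were not compared.

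The surroundings differed little from those of other regions of as many lines. A pair-only region had a median of 3 regions of all 6 lines within 500 kb on each side, as had all 2-line regions. None was present around 65 (16.0%) of the pair-only regions and around 14.5% of the 2-line regions. The nearest such region was a median of 127613 bp away, against 104465 bp for the 2-line regions. For pair-missed regions the distance was 71640 bp, against 70175 bp for all 4-line regions, and 10 of the 99 (10.1%) had none within 500 kb, against 9.12%.

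The calls that define the members lay in part at the edge of the authors' threshold. The weakest pair-only regions were chr1:172852928-172853255, with −log10 p of 5.02 in DND-41 and 5.72 in KOPT-K1 and 8 tags in each, chr18:43622727-43623164 with 19.3 and 5.01, and chr13:91922196-91922611 with 27.9 and 5.01. Among pair-missed regions the weakest were chr1:66556709-66557054, where TALL-1 had 5.03, and chr7:75557659-75558371 and chr16:57450519-57451454, where MOLT-4 had 5.10. Just outside, chr12:15687354-15687629 had 18.2 in DND-41 and 6.71 in KOPT-K1 and was kept out by a MOLT-4 peak of 5.01. At chr6:120151319-120152076 a TALL-1 peak of 5.03 stood beside 16.0 and 11.9, and at chr1:9031035-9031413 a CCRF-CEM peak of 5.0005 beside 9.80 and 7.14. With peaks of −log10 p of at least 10 asked of both DND-41 and KOPT-K1, 124 of the 406 pair-only regions remained, and with the same asked of the other 4 lines 18 of the 99 pair-missed regions remained.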

How the data were processed

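ATAC-seq peak lists of 6 T-ALL lines, 1 library each, were read as the authors deposited them, in narrowPeak layout without a header. Lines were identified by the cell line label. MACS2 2.1.1.2016030, Bowtie2, SAMtools and Picard, with build hg19, come from the submitters' processing notes; their order, settings and any Tn5 shift were not given in the sources used here. For each summit the authors deposited a score, a fold enrichment (a ratio over background), a −log10 p-value and a −log10 q-value; score and q-value were not used. Summit lines of 1 interval were joined, keeping the strongest for its values, and only chromosomes 1 to 22 and X were kept.

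Intervals of different lines were merged where they shared 1 bp or more. Pileups were recovered by trying whole tag numbers t: the deposited fold, read as (t + 1) / (c + 1), gave a background c, and t was accepted where the Poisson chance of exceeding t matched the −log10 p within 0.001. This succeeded at all members. Merging, classing and recovery were tested on simulated data. With 1 library per line no test was made. Members, lists and comparisons were chosen with earlier results of these data known. Named regions follow a rule: the 10 strongest of each kind by the lowest percentile, the 5 chains of each kind with most members (ties by shorter span), the widest, the most distant summits, and the 3 nearest the threshold on each side. The regions on chromosome 22 were named outside it, after their values were seen. Coordinates are 1-based. The alternatives tried are given in the closing section. The scripts used scipy 1.17.1, pandas 2.3.3, numpy 2.4.6 and matplotlib 3.10.9 under Python 3.11.15.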

Additional observations from a re-analysis of the deposited data

How the results depend on the processing

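The number of pair-only regions stayed within 1.5 times 406 under 10 of 11 alternatives, between 300 when only intervals with −log10 p of 10 or more were used in every line and 608 when CCRF-CEM was not asked about. It moved to 124 when −log10 p of 10 or more was asked of the members' own peaks alone. Pair-missed regions numbered 18 under that alternative and 58 with equal numbers of intervals, and without 1 of the 4 other lines they numbered 190 without MOLT-4, 192 without HBP-ALL, 308 without CCRF-CEM and 385 without TALL-1. Without such a line the pair-only count ran from 560 to 608, and it could only rise, since all 406 stayed members. A similar count does not mean similar regions: with −log10 p of 10 or more in every line 124 of the 406 and 18 of the 99 were still members, and with equal numbers 285 and 39. Merging by 100 bp of overlap, over gaps of 500 bp or by summits within 250 bp gave 402, 397 and 420 pair-only and 100, 96 and 112 pair-missed regions. Leaving out members with a nearby interval of a line without a call gave 384 and 94. That filter and the one on the members' own peaks could only lower the counts. The tally of 10 of 11 is therefore not a measure of stability. The median distance between summits was 47 bp for the nearest summits and 29 bp where both peaks had −log10 p of 10 or more. No paired analysis was possible because each line has 1 library. The number of reads is not known here, so a missing call cannot be told apart from a peak below the threshold, nor from DNA that a line has lost.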

Other observations

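Regions 1 call away from the pair-only class were described in the same way. DND-41 and KOPT-K1 shared a peak with exactly 1 other line at 201 regions for CCRF-CEM, 161 for HBP-ALL, 199 for MOLT-4 and 154 for TALL-1. The peak of that other line had a median percentile in its own list of 46.3 in CCRF-CEM, 29.8 in HBP-ALL, 26.8 in MOLT-4 and 19.5 in TALL-1. It stood under the 10th percentile of its list at 14, 20, 31 and 41 of these regions. The line that joined DND-41 and KOPT-K1 was thus nearest the threshold most often where it was TALL-1.

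Regions 1 call away from the pair-missed class were more numerous than the class itself. The other 4 lines shared a peak with DND-41 but not KOPT-K1 at 277 regions, and with KOPT-K1 but not DND-41 at 221. The median percentile was 34.3 for the DND-41 peak and 43.6 for the KOPT-K1 peak. Regions where DND-41 and KOPT-K1 had no peak and exactly 1 of the other 4 lines also lacked one numbered 285 where that line was TALL-1, 208 for CCRF-CEM, 94 for HBP-ALL and 91 for MOLT-4.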
